A study of Mus musculus with 21 samples.

Results

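The genes described here are 43 cell cycle and DNA replication genes among the 52550 genes of an RNA-Seq count table of mouse cochlear cells. They were chosen by symbol as genes of proliferation, replication and cell cycle exit. No threshold on measured values was used, but earlier results of these data were known when they were chosen. By role they are 7 regulators of G1 and of entry into S phase, 10 genes of origin licensing and the replication fork, 3 genes of nucleotide synthesis, 5 cyclins and kinase regulators of S, G2 and M phase, 8 mitotic kinases and checkpoint genes, 7 genes of the centromere and of mitotic chromosomes, and 3 inhibitors of cyclin-dependent kinases (CDKs). All 43 were found in the table.

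The libraries hold spiral ganglion neurons (SGNs), the primary auditory neurons, from 5 ages (E15.5 and postnatal days P1, P8, P14 and P30), hair cells (HCs) of the inner ear at P12 and glia at P8, with 3 libraries per group and 21 in all. The SGNs came from mice with ShhCre/+ and the Cre-dependent tdTomato reporter Ai9/+, in which Cre is driven from the *Shh* locus, and each library was made from 69 to 195 manually picked cells. The HCs came from Atoh1-CreER+; Ai9/+ mice given tamoxifen at P0 and P1, with 1200 cells of cochlea and vestibule per library. The glia came from vGlut3-iCreER/+; Ai9/+ mice given tamoxifen at P2 and P3, with 86 to 125 picked cells of the SGN area per library, and all mice were on the C57BL/6 strain. The paper's methods describe fluorescence-activated sorting for the HCs and manual picking for SGNs and glia. The labels describe the HCs as manually sorted. Groups therefore differ in Cre line, tamoxifen, cell number and possibly collection method as well as in cell type. HCs also differ in age from the P8 glia and the P14 SGNs. These differences cannot be told apart. The labels do not say which animals gave which library, so p-values measure the spread between these libraries, which may be technical in part.

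A dividing cell passes through G1, S, G2 and M phase. D-type cyclins with Cdk4 and cyclin E with Cdk2 release E2F factors from RB proteins in G1, E2F targets load the MCM helicase on origins and supply nucleotides in S phase, and cyclins A and B with Cdk1 drive mitosis, which the spindle checkpoint holds until every kinetochore is attached. Neurons and hair cells are post-mitotic, SGN precursors in the mouse leave the cycle before E15.5, and Schwann cell precursors and immature Schwann cells still divide in the perinatal nerve. Exit from the cycle is held by RB family proteins, by the DREAM complex and by CDK inhibitors of the Cip/Kip family.

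Promoters of 4 members are shown first because they carry the sequence elements that the replication genes and the mitotic genes are known for. The same genes also differed below between cell types or, for *Mcm6*, between SGN ages. The windows run from 250 bases before to 50 bases after the start of the gene, were taken from RefSeq on GRCm38.p6, and are printed 5′ to 3′ on the gene's strand with motif matches in capitals. The motifs searched on both strands were the cell cycle homology region (CHR; TTTGAA or TTCGAA), the CCAAT box (CCAAT) and an E2F element (TTTCCCGC, TTTGGCGC, TTTCGCGC or TTTGCCGC). *Cdk1* (chr10:69352863-69353162, minus strand) and *Ttk* (chr9:83834439-83834738, plus strand) were nearly silent in HCs. *Bub1b* (chr2:118597961-118598260, plus strand) was high in HCs. *Mcm6* (chr1:128359656-128359955, minus strand), a subunit of the replicative helicase, was lower in SGNs at P30 than at E15.5.
Cdk1: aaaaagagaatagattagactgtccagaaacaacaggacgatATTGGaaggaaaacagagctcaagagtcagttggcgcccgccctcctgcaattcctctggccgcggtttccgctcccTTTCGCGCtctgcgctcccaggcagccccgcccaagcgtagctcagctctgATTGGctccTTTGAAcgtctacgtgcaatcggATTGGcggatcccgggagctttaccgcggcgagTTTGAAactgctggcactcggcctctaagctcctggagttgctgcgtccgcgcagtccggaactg
Ttk: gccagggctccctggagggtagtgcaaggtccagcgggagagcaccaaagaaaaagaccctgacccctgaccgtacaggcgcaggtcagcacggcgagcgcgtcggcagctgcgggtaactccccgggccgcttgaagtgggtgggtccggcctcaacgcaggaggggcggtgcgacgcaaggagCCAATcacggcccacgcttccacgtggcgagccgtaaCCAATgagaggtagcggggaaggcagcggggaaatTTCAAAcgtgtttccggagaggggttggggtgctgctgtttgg
Bub1b: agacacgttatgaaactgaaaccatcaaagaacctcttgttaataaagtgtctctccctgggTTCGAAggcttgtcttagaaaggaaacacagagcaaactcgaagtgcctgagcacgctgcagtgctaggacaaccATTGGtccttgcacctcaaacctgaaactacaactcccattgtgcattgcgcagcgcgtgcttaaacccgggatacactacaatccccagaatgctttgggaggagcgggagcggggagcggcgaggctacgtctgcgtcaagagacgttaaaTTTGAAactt
Mcm6: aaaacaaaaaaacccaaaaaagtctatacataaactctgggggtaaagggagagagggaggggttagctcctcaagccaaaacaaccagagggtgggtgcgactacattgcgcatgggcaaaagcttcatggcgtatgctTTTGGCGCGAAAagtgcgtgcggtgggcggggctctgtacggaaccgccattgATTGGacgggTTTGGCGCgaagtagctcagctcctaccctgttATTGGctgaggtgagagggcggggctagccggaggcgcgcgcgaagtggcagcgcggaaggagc

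The *Cdk1* window held 2 CHR, 3 CCAAT and 1 E2F match, and the *Ttk* window held 1 CHR and 2 CCAAT matches. The *Bub1b* window held 2 CHR matches and 1 CCAAT match, and like the *Ttk* window it held no E2F match. The *Mcm6* window held 3 E2F matches, of which 2 overlap, 2 CCAAT matches and no CHR match. Promoters of 33 of the 43 members were in the table. Among the 16 of the S, G2 and M phase, mitotic kinase and centromere genes with a promoter, 12 had a CHR match (75.0%), against 19.2% of all 32851 promoters of the table. The 8 licensing and fork genes with a promoter had 9 promoters. Of these, 6 had an E2F match (66.7%, of *Cdc6*, *Cdt1*, *Mcm3*, *Mcm5*, *Mcm6* and *Mcm7*), against 2.26% of all promoters. A CCAAT box stood in 14 of the 16 mitotic promoters and in 37.4% of all promoters. It also stood in 7 of the 9 licensing and fork promoters and in 2 of 3 nucleotide synthesis promoters. In G1 regulators it stood in 1 of 4 promoters and in CDK inhibitors in 1 of 3. These matches describe the letters of the windows and are not evidence of binding.

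Libraries held 10368240 to 37287489 counts on genes, with a median of 20384100, and a limit of 3 counts for a count of 0 equals 0.0805 to 0.289 CPM, the counts scaled to a common library size. Levels below are RPKM, CPM on TMM-scaled library sizes divided by the deposited gene length in kilobases. The SGN markers *Slc17a6*, *Slc17a7* and *Lypd1* summed to 41.7 to 359 RPKM in SGN libraries, 1.57 to 2.85 in HCs and 1.67 to 32.3 in glia, the HC markers *Myo6*, *Myo7a*, *Pou4f3* and *Gfi1* to 378 to 396 in HCs, and the glial markers *Sox10* and *Foxd3* to 173 to 307 in glia, so each group was high for its own markers. Replicate 1 of the P1 SGNs stood apart with 41.7 RPKM of endothelial markers (*Pecam1*, *Cldn5*, *Cdh5* and *Kdr*), against 0.0570 and 0.130 in the other P1 libraries. Connective tissue markers (*Col1a1*, *Col1a2*, *Col3a1*, *Dcn*, *Lum* and *Postn*) were highest in replicate 1 at each postnatal age of SGNs, with sums of 81.5 (P1), 114 (P8), 32.7 (P14) and 18.6 RPKM (P30), against 0.174 to 14.8 in the other libraries of those ages. Glial markers summed to 19.6, 6.81 and 11.1 RPKM in the P8 SGNs, the age with the highest mean sum. Replicate 1 of the P14 SGNs had 8.90 RPKM of glial markers against 4.13 and 4.03, and replicate 3 of the E15.5 SGNs had 11.0 against 1.39 and 4.64. Replicate 1 of the glia had the 32.3 RPKM of SGN markers, against 4.61 and 1.67. Schwann cell myelin transcripts (*Mbp*, *Pmp22*, *Mag*, *Prx* and *Egr2*) summed to 263 to 593 RPKM in P8 SGNs, to 138 in replicate 1 of the P30 SGNs against 26.6 and 6.20, and to 1880 to 2593 in glia, and macrophage markers to at most 1.65 in any library.

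The members were at their highest group mean in the P8 glia for 33 of 43, in E15.5 SGNs for 5, in HCs for 2, and in P1, P14 and P30 SGNs for 1 each. The 20 genes of S, G2 and M phase, mitotic kinases and centromere summed to 392, 166 and 72.3 RPKM in the glia, to 18.1, 27.2 and 15.9 in E15.5 SGNs and to 7.39, 7.36 and 5.01 in P30 SGNs. In HCs they summed to 16.2, 16.3 and 17.1 RPKM, of which *Bub1b* alone was more than 8 in each library. The glial sums spread over a wide range yet lay above every other library. In bulk libraries of picked cells, fewer cells that express a gene and less RNA per cell cannot be told apart.

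**Figure D1:**
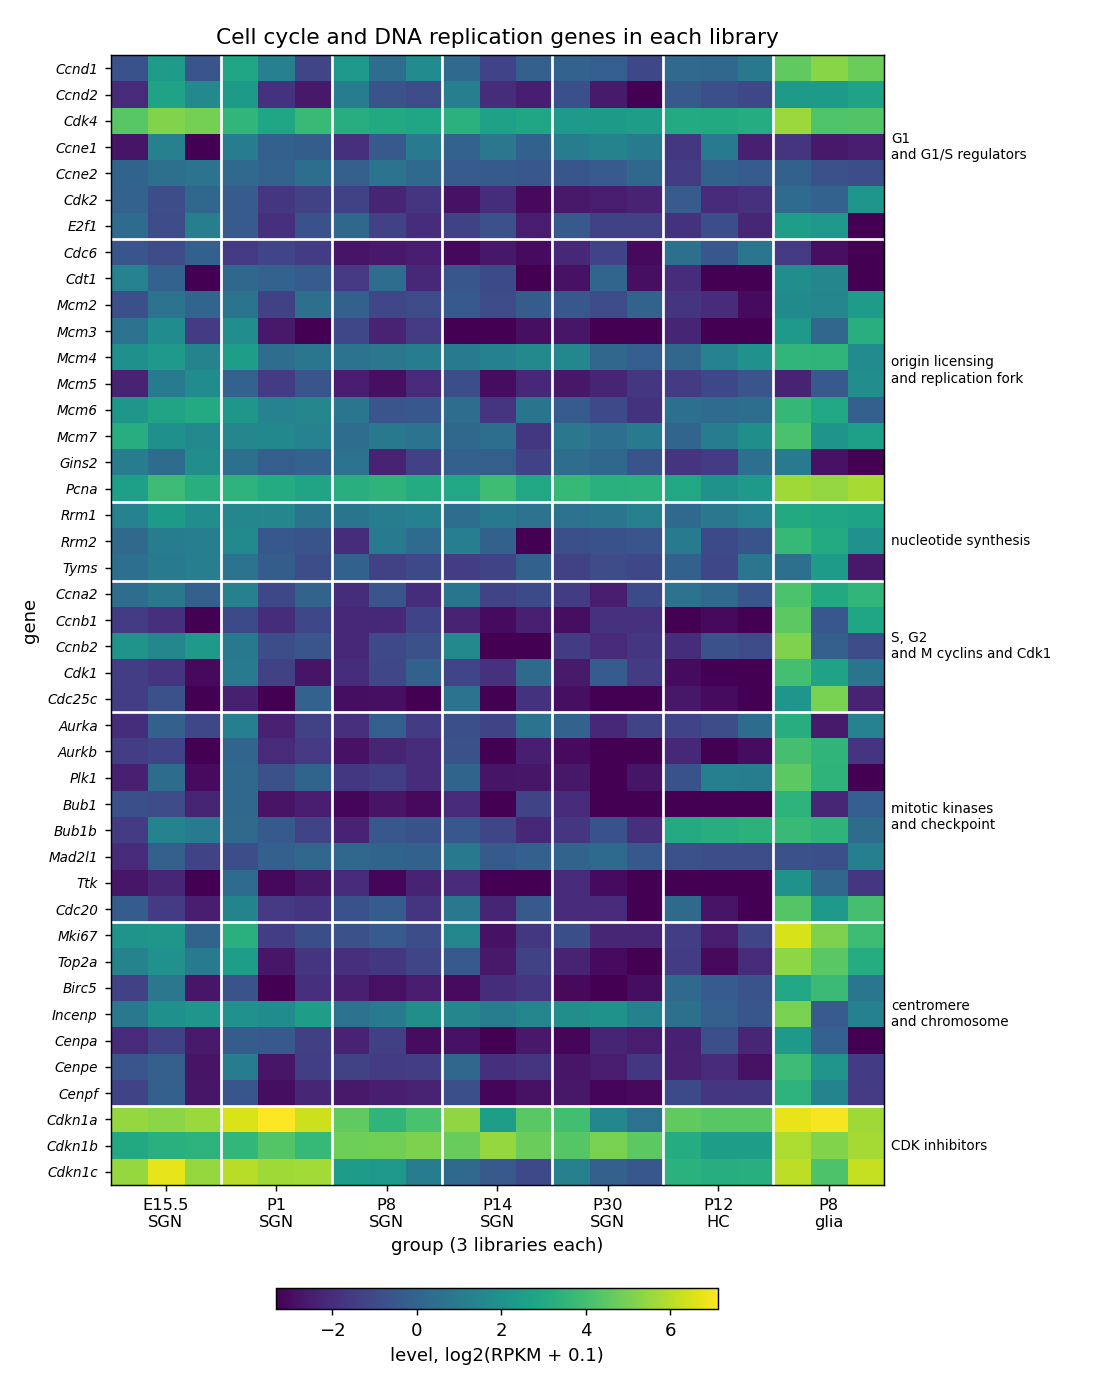
Level of each of the 43 members (rows, grouped by role) in each of the 21 libraries (columns, 3 per group, separated by white lines), as log2(RPKM + 0.1). The glial columns are bright across the mitotic rows, the CDK inhibitor rows are bright in most SGN columns, and Bub1b is bright in the 3 HC columns.

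Tests were made with limma-voom across all genes that had over 1 CPM in all 3 libraries of at least 1 group. Of the members, 34 passed in the fit of the 15 SGN libraries and 40 in the fit of all 21, and the 9 that did not pass in SGNs were *Bub1*, *Aurkb*, *Cdc25c*, *Aurka*, *Cdc20*, *Ttk*, *Cdk1*, *Birc5* and *Ccnb1*. *Bub1*, *Aurkb* and *Cdc25c* passed in neither fit. In the fit of all libraries, *Ccnb1*, *Cdk1*, *Ttk* and *Cdc20* passed only through the glia and *Aurka* only through HCs. In the fit of SGNs, *Ccnb2*, *Mcm3*, *Cenpf* and *E2f1* passed only through E15.5 and *Cdt1*, *Mcm5*, *Plk1* and *Cenpa* only through P1. Such a gene entered its test through the group in which all 3 of its libraries were above the limit. A change between SGN ages was called at an adjusted p under 0.05 and over 2-fold, and a difference between cell types at an adjusted p under 0.01 and over 4-fold.

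The CDK inhibitors *Cdkn1a* and *Cdkn1c* had the highest mean RPKM of the members in SGNs at E15.5 and P1, and all 3 inhibitors changed between P1 and P8. *Cdkn1c*, which encodes p57 (chr7:143458339-143461050, GRCm38), was at 45.0, 106.7 and 44.3 RPKM at E15.5, at 64.7, 49.9 and 51.1 at P1, at 5.16, 4.63 and 2.05 at P8, at 1.08, 0.656 and 0.394 at P14 and at 2.27, 0.809 and 0.608 at P30. All 3 libraries of P8 lay below all 3 of P1. It fell by 3.86 ± 0.49 (SE) on the log2 scale from P1 to P8 (adjusted p = 0.000108) and by 5.76 ± 0.82 from E15.5 to P30 (adjusted p = 4.04e-05), and the call held under all 14 and all 13 alternatives tried.

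*Cdkn1a*, which encodes p21, a target of p53 (chr17:29090976-29100727), was at 43.9, 39.1 and 46.7 RPKM at E15.5 and at 96.5, 139.9 and 80.7 at P1, then at 23.7, 11.3 and 17.3 at P8, 41.5, 5.66 and 22.0 at P14 and 15.6, 2.72 and 1.41 at P30. It was thus highest at P1, with no overlap between P1 and either neighboring age. The difference from E15.5 to P1 was +1.26 ± 0.42 on the log2 scale and did not pass (adjusted p = 0.0643), whereas from P1 to P8 it fell by 2.62 ± 0.47 (adjusted p = 0.00164) and from E15.5 to P30 by 3.21 ± 0.82 (adjusted p = 0.00543). Without replicate 1 of P30, its highest library at that age, the last difference was -4.48 (adjusted p = 0.00843). The fall from P1 to P8 kept its call in 13 of 14 alternatives, and its adjusted p was 0.0534 in edgeR's quasi-likelihood test, the highest over the alternatives.

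*Cdkn1b*, which encodes p27 (chr6:134920401-134925513), moved the other way. It was at 8.08, 9.71 and 10.7 RPKM at E15.5, at 12.1, 20.2 and 12.6 at P1, at 28.1, 29.8 and 33.6 at P8, at 26.2, 44.2 and 26.6 at P14 and at 20.6, 32.2 and 22.8 at P30. Every library from P8 on lay above every library of E15.5 and P1. It rose by 1.07 ± 0.24 on the log2 scale from P1 to P8 (adjusted p = 0.00748), close to the 2-fold limit, and by 1.32 ± 0.29 from E15.5 to P30 (adjusted p = 0.00177). The P1 to P8 call was lost in 5 of 14 alternatives, among them the fits without P1 replicate 1, P1 replicate 3 or P8 replicate 3, with a log2 change between +0.85 and +1.31 and an adjusted p between 0.00262 and 0.0904. Scaled by library size only, the rise from E15.5 to P30 was +0.83 and under 2-fold. At P1 *Cdkn1a* and *Cdkn1c* were thus the higher of the 3 inhibitors, and at P8, P14 and P30 *Cdkn1b* had the highest mean RPKM. Exons of *Cdkn1a* and *Cdkn1c* overlap AC167363.2 and Gm44732 on the opposite strand, and whether counting used strand is not stated.

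**Figure D2:**
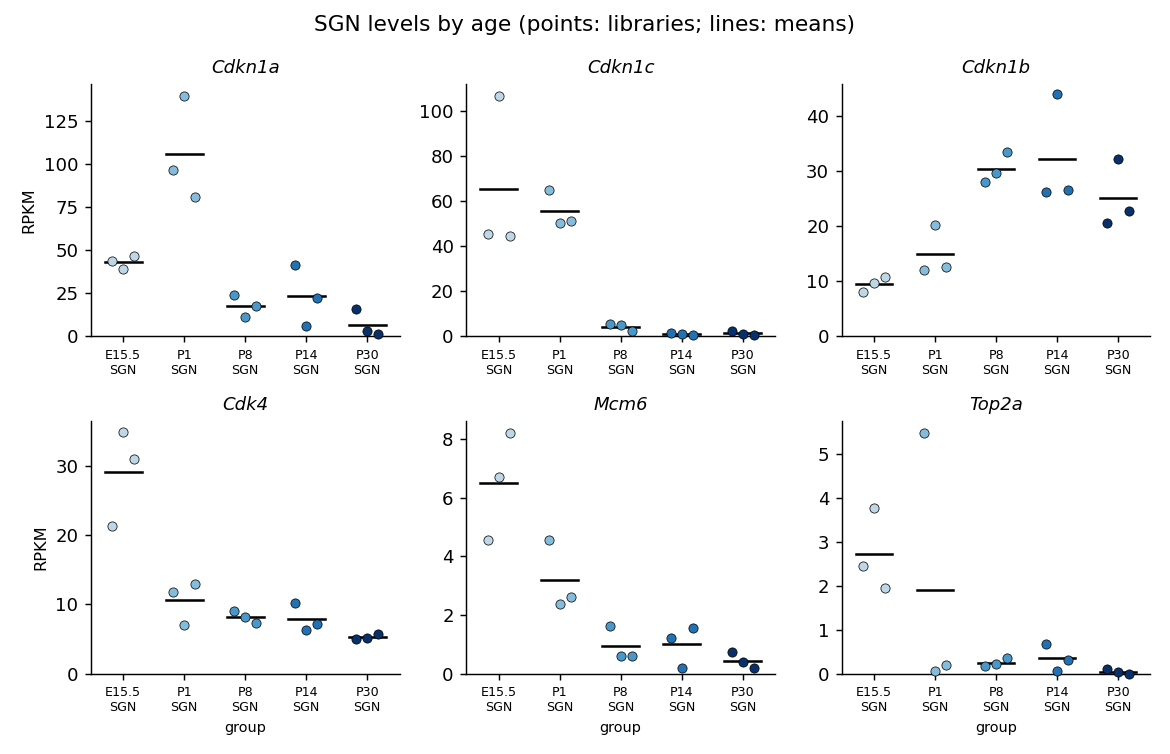
Levels in RPKM (vertical axes, from 0) of 3 CDK inhibitors, Cdk4, Mcm6 and Top2a in SGNs at 5 ages (horizontal axes), with 1 point per library and a line at the mean. Cdkn1c drops from 49.9 to 64.7 at P1 to 2.05 to 5.16 at P8, Cdkn1b is above 20 in all libraries from P8 on, and replicate 1 is the outlying P1 point of Top2a at 5.46.

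Among the G1 regulators, *Cdk4*, the kinase partner of D-type cyclins (chr10:127063534-127067920), fell first. Its level was 21.4, 35.0 and 31.1 RPKM at E15.5 and 11.8, 7.02 and 13.0 at P1, with no overlap, and 4.97, 5.08 and 5.74 at P30. It fell by 1.49 ± 0.25 on the log2 scale from E15.5 to P1 (adjusted p = 0.00171), the only member called in that transition, where 8.26% of the 15113 genes tested were called and 3.18% were called lower. From E15.5 to P30 it fell by 2.50 ± 0.31 (adjusted p = 1.04e-05). Both calls held under all alternatives. Without E15.5 replicate 1, or without P1 replicate 1, 2 members were called from E15.5 to P1, and *Cdk4* was among them each time. Of the 15113 genes tested, 1036 and 1016 were called then. Exons of *Cdk4* overlap Tspan31 on the opposite strand.

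The other G1 genes were low and mixed. *Cdk2*, the partner of cyclins E and A, was at 0.885, 0.455 and 1.06 RPKM at E15.5 and at 0.0643, 0.0796 and 0.104 at P30, and fell by 3.20 ± 0.85 on the log2 scale (adjusted p = 0.00698). *Ccne1*, which encodes cyclin E1, rose by 4.20 ± 1.39 (adjusted p = 0.0232), although its E15.5 libraries at 0.0504, 2.24 and 0 RPKM reached into the range of P30 at 1.98, 2.48 and 1.95. The *Ccne1* call was lost in 5 of 13 alternatives, among them the fits without E15.5 replicate 1 or 3, with a log2 change between +1.44 and +6.48 and an adjusted p between 0.0122 and 0.383. The cyclin D genes *Ccnd1* and *Ccnd2*, cyclin E2 (*Ccne2*) and *E2f1* passed at no age comparison.

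Among the replication genes the helicase subunit *Mcm6* was lower at P30 than at E15.5 without overlap. It was at 4.56, 6.69 and 8.21 RPKM at E15.5, 4.56, 2.38 and 2.60 at P1, 1.62, 0.585 and 0.608 at P8, 1.23, 0.195 and 1.56 at P14 and 0.729, 0.401 and 0.185 at P30. It fell by 4.01 ± 0.77 on the log2 scale from E15.5 to P30 (adjusted p = 0.000629), under every alternative. From P1 to P8 its fall of 1.89 ± 0.59 was at the threshold (adjusted p = 0.0489), and leaving out any 1 of the 6 libraries ended that call, with adjusted p up to 0.187 over the alternatives.

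Of the 10 licensing and fork genes, 4 fell from E15.5 to P30 (*Cdc6*, *Mcm3*, *Mcm6* and *Mcm7*), 0 rose and 6 did not pass, where 16.2% of all genes tested were called lower. *Cdc6*, which loads the helicase, was at 0.591, 0.429 and 0.810 RPKM at E15.5 and 0.128, 0.337 and 0.0206 at P30. *Mcm3* was at 1.41, 3.28 and 0.259 RPKM at E15.5 and 0.0533, 0 and 0 at P30, where its only library with counts had 6. *Mcm3* entered the SGN test only through E15.5, the age at which it was high, and kept its call with no filter on low counts (adjusted p = 0.00671). *Mcm7* was at 9.12, 3.70 and 2.91 RPKM at E15.5 and 1.67, 1.29 and 1.94 at P30, and its exons overlap Cops6 and Ap4m1 on the opposite strand. The groups did not overlap for any of these 4 genes, but only *Mcm6* kept its call throughout. *Cdc6* was lost in 7 of 13 alternatives (adjusted p up to 0.129, with E15.5 replicate 3 or P30 replicate 1 or 3 left out among them), *Mcm3* in 4 (up to 0.107, E15.5 replicate 1 or 2 or P30 replicate 2 or 3) and *Mcm7* in 6 (up to 0.0782, E15.5 replicate 1 or any P30 library).

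*Pcna*, the sliding clamp of the polymerases, was the exception among the fork genes, with 5.82, 14.4 and 9.41 RPKM at E15.5 and 12.9, 9.95 and 10.02 at P30. Its 15 SGN libraries ranged from 5.82 to 14.7 RPKM and no age comparison passed. *Pcna* also serves DNA repair. In nucleotide synthesis, *Tyms*, thymidylate synthase, was at 1.32, 1.83 and 2.10 RPKM at E15.5 and 0.312, 0.443 and 0.381 at P30, and fell by 2.28 ± 0.62 on the log2 scale (adjusted p = 0.00767). *Rrm1*, the large subunit of ribonucleotide reductase, fell by 1.11 ± 0.34 (adjusted p = 0.0147), a call lost without E15.5 replicate 2 or P30 replicate 1 (adjusted p up to 0.0908). *Rrm2*, its small subunit, had a log2 difference of -1.74 ± 1.21 and did not pass.

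The mitotic genes were low in SGNs, and the highest values at P1 and P14 came from single libraries. *Mki67*, which encodes the Ki-67 protein of dividing cells, was at 4.10, 4.56 and 0.914 RPKM at E15.5, at 9.87, 0.276 and 0.474 at P1, at 0.497, 0.711 and 0.451 at P8, at 2.65, 0.0425 and 0.221 at P14 and at 0.477, 0.120 and 0.118 at P30. The high P1 library was replicate 1, with 3460 counts against 70 and 112 in the others, and the high P14 library was also replicate 1. No age comparison of *Mki67* passed, and from E15.5 to P30 the log2 difference was -3.58 ± 1.72 (adjusted p = 0.104) although the groups did not overlap.

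*Top2a*, the topoisomerase that untangles mitotic chromosomes, showed the same libraries high, with 2.44, 3.76 and 1.95 RPKM at E15.5, 5.46, 0.0529 and 0.199 at P1 and 0.104, 0.0244 and 0 at P30. It fell by 6.88 ± 2.10 on the log2 scale from E15.5 to P30 (adjusted p = 0.0151). *Ccnb2*, a B-type cyclin, was at 4.21, 2.64 and 4.80 RPKM at E15.5 and 0.261, 0.144 and 0.211 at P30, and fell by 4.12 ± 1.16 (adjusted p = 0.00935). Both calls held in all 13 alternatives, but *Ccnb2* entered the SGN test only through E15.5, the age at which it was high (adjusted p = 0.0243 with no filter on low counts). These were 2 of 11 tested genes of S, G2 and M phase, mitotic kinases and centromere, 18.2%, close to the 16.2% of all genes called lower, and *Ccna2*, cyclin A2, had an adjusted p of 0.0521 at a log2 difference of -2.47 ± 0.98. *Mad2l1*, a spindle checkpoint gene, and *Incenp*, a subunit of the chromosomal passenger complex, kept 0.630 to 1.09 and 2.28 to 3.98 RPKM at P30.

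Replicate 1 of the P1 SGNs was highest of the P1 libraries for the summed 20 mitotic genes, with 40.01 RPKM against 8.20 and 13.2, and it held the endothelial and connective tissue markers given above. At P14 replicate 1 had 20.3 RPKM against 4.59 and 9.01, beside its glial and connective tissue markers and 2.35 RPKM of endothelial markers against 0.00859 and 0.0793. At P8 replicate 1 had the lowest sum, 5.53 RPKM against 8.46 and 8.87, with 8.15 RPKM of endothelial markers against 0.0908 and 0.174. Its glial markers were also the highest of that age, at 19.6 RPKM against 6.81 and 11.1. At E15.5 the endothelial markers summed to 0.771, 0.916 and 0.0577 RPKM, replicate 1 held 116 RPKM of hemoglobin transcripts, and the neuroblast genes *Neurog1*, *Neurod1* and *Insm1* summed to 9.28, 9.76 and 23.9 RPKM, against 0.316 to 0.555 at P30. Connective tissue markers summed to 18.7, 26.6 and 5.99 RPKM at E15.5, in the order of the mitotic sums of 18.1, 27.2 and 15.9, and to 18.6, 0.454 and 0.174 at P30, and glial markers to 1.39, 4.64 and 11.0 at E15.5 and 1.97, 0.324 and 0.205 at P30. The part of other cells in the counts of members was not tested.

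**Figure D3:**
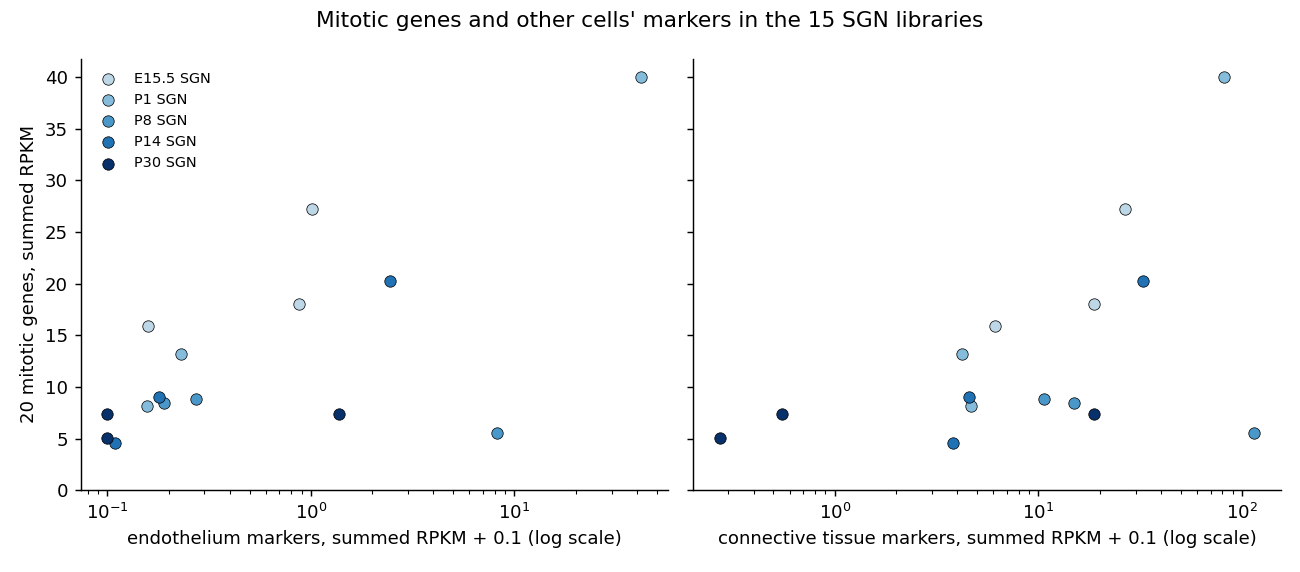
Summed RPKM of 20 mitotic genes (vertical axis) against summed RPKM + 0.1 of endothelial (left) and connective tissue markers (right, both log axes) in the 15 SGN libraries, colored by age. The P1 library at 40.01 and the P14 library at 20.3 are the 1st replicates of their ages, and the P8 library with 114 RPKM of connective tissue markers is at 5.53.

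By count, 14 of the 34 members tested were called between E15.5 and P30, 2 higher and 12 lower at P30, where 34.6% of all genes tested were called and 16.2% were called lower. Their median log2 difference was -1.93 against -0.01 over all genes tested. Setting aside the 4 members that entered only through E15.5, 10 of 30 were lower, with a median log2 difference of -1.73 over the 30. Without replicate 1 of P30, which held other cells' markers, or without replicate 3, 11 were called. Of all genes 4433 and 4225 were called then, against 5224 with all libraries. From P1 to P8, 4 members were called, 1 higher and 3 lower, where 7.44% of genes were called, 4.29% higher and 3.15% lower, and 2 were called without P1 replicate 1, without P1 replicate 3 or without P8 replicate 3. Those 3 fits called 638, 920 and 759 of all genes, against 1124 with all libraries. From P8 to P14 and from P14 to P30, limma-voom called 0 members, where 0.536% and 0.0596% of genes were called (0.0331% higher at P30 than at P14), and 1 member had an unadjusted p under 0.05 in each. In P8 to P14 that member was *Cdkn1c*, which DESeq2 called as the only member, and in P14 to P30 it was *Cdkn1a*, where DESeq2 called 0. edgeR called 0 members in both. In limma-voom, 1735 and 990 of all 15113 genes had an unadjusted p under 0.05. DESeq2 called 198 of 11230 genes from P8 to P14 and 97 of 15000 from P14 to P30. The neighboring comparisons share their middle age.

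The other genes of the pathway were taken in 4 lists of 96 genes. The groups through which each of them passed the filter were not examined. Counts of these lists thus include any gene that entered through a single group. From E15.5 to P30, where 18.4% of all genes tested were called higher and 16.2% lower, 2 of 22 tested mitosis genes were called higher and 6 lower, 2 of 30 replication genes higher and 5 lower, 2 of 16 genes of the RB, E2F and DREAM list higher and 5 lower, and 2 of 10 other cyclin and CDK genes higher and 3 lower. *E2f7*, a repressive E2F, fell from 0.585 ± 0.553 to 0.00247 ± 0.00427 RPKM (SD, n = 3 libraries each, adjusted p = 0.00501), and *Foxm1*, an activator of mitotic genes, from 1.70 ± 0.878 to 0.167 ± 0.121. *Lig1*, the replicative DNA ligase, fell from 11.7 to 2.01 RPKM, and *Uhrf1*, which recruits maintenance methylation to replicated DNA, from 1.76 to 0.0398. In the same replication list *Rfc1* rose from 3.82 to 7.90 RPKM and *Orc5* from 1.14 to 2.58. In the mitosis list, where 6 genes fell, *Pttg1* rose from 0.534 to 5.15 RPKM and *Bub3* from 2.95 to 7.12. In the RB, E2F and DREAM list *E2f6* rose from 7.55 to 18.9 RPKM and *Lin52* from 1.49 to 4.36. *Wee1*, the kinase that holds Cdk1 inactive, rose from 1.30 ± 1.13 to 15.1 ± 1.99 RPKM, and it rose between P1 and P8 by 2.02 ± 0.40 on the log2 scale (adjusted p = 0.00330). *Cks1b*, a CDK subunit, fell between P1 and P8 from 8.61 to 0.925 RPKM.

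The P8 glia had the highest mean of most members, as counted above. They also had the highest sums of connective tissue markers, with 238, 384 and 288 RPKM and counts of all 6 genes in each library, against 114, 14.8 and 10.5 in P8 SGNs, and the part of such cells in the levels of members was not tested. *Mki67* was at 90.2, 33.3 and 14.7 RPKM in glia and at 0.497, 0.711 and 0.451 in P8 SGNs. *Top2a* was at 40.8, 21.7 and 8.75 RPKM against 0.171, 0.221 and 0.351. *Birc5*, which encodes survivin, was at 7.29, 13.9998 and 1.60 RPKM against 0.0907, 0.0391 and 0.0715. The glial libraries differed among themselves by several fold, and the lowest was still above the highest P8 SGN library for each of these genes. The log2 differences were 6.20 ± 1.24 for *Mki67* (adjusted p = 0.000454), 6.54 ± 1.22 for *Top2a* (adjusted p = 0.000215) and 6.41 ± 1.27 for *Birc5* (adjusted p = 0.000388).

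Of the cyclins and CDKs, *Ccna2* was at 18.1, 8.02 and 11.8 RPKM in glia against 0.159, 0.570 and 0.159 in P8 SGNs, a log2 difference of 5.67 ± 0.78 (adjusted p = 9.23e-06). *Ccnd1*, cyclin D1, was at 23.9, 38.7 and 27.1 RPKM against 4.71, 1.23 and 3.17, a log2 difference of 3.43 ± 0.58 (adjusted p = 8.82e-05). *Ccnb1*, cyclin B1, was at 22.5, 0.623 and 7.23 RPKM in glia against 0.132, 0.126 and 0.327, and *Cdk1*, the mitotic CDK, was at 16.0, 6.48 and 1.57 against 0.156, 0.371 and 0.855. Glial replicate 2 was low for *Ccnb1* and replicate 3 for *Cdk1*, so the libraries did not keep 1 order over the genes. *Plk1*, the polo-like kinase of mitotic entry, was at 22.6, 11.0 and 0 RPKM in glia and did not pass.

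*Pcna* was steady in glia, at 49.96, 43.5 and 54.1 RPKM against 9.59, 11.0 and 8.46 in P8 SGNs, a log2 difference of 2.34 ± 0.28 (adjusted p = 2.32e-06). *Mcm2* was at 3.01, 2.67 and 5.30 RPKM against 0.852, 0.373 and 0.431, a log2 difference of 2.69 ± 0.62 (adjusted p = 0.00145). *Rrm1* and *Cdk4* were 3.74-fold and 3.44-fold higher in glia without overlap, under the 4-fold limit. The glia were also high for genes that restrain the cycle. *Cdkn1a* was at 109.9, 125.8 and 50.2 RPKM in glia against 23.7, 11.3 and 17.3 in P8 SGNs (log2 difference 2.45 ± 0.49, adjusted p = 0.000456), and *Cdkn1c* was at 68.1, 18.6 and 73.0 against 5.16, 4.63 and 2.05 (3.64 ± 0.64, adjusted p = 0.000127). *Cdkn1b* at 56.8, 35.0 and 52.0 RPKM was 1.59-fold higher and did not pass.

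By count, 18 of 40 members tested were called higher in glia than in P8 SGNs and 0 lower, where 20.9% of all genes tested were called and 7.53% were called higher. *Ccnb1*, *Cdk1* and *Cdc20* entered the test only through the glia, where they were high, and setting aside the 4 members that did so, 15 of 36 were called. With no filter on low counts 14 were called, 13 of them among the 18. Of the 36366 genes then tested, 1274 were called higher in glia. The 18 were 3 of 4 tested genes of S, G2 and M phase, 2 of 6 mitotic kinase and checkpoint genes, 4 of 7 centromere and chromosome genes, 4 of 10 licensing and fork genes, 1 of 3 nucleotide genes, 2 of 7 G1 regulators and 2 of 3 CDK inhibitors. These shares keep *Ccnb1* and *Cdk1* among the S, G2 and M genes. They also keep *Cdc20* and the uncalled *Ttk* among the kinase and checkpoint genes, and all 4 entered only through the glia. The median log2 difference was 2.71 against -0.22 over all genes tested, and 2.54 over the 36 members left without those 4. The calls of *Pcna*, *Ccna2*, *Mki67*, *Cdkn1c*, *Ccnd1*, *Top2a*, *Birc5* and *Cdkn1a* held under all 14 alternatives. The other 10 were lost under at least 1 and stayed higher in glia under all. Of these, *Bub1b* was lost without P8 SGN replicate 1 (adjusted p = 0.0132), *Cdc20* without P8 SGN replicate 3 (0.0115), *Mcm2* without P8 SGN replicate 2 (0.0107) and *Mcm7* without P8 SGN replicate 1 or glial replicate 1 (up to 0.0265). *Cdk2* was lost without P8 SGN replicate 2 or 3 or glial replicate 3 (up to 0.0253), and *Cdk1*, *Ccnb1*, *Cenpf*, *Rrm2* and *Mcm4* were lost without any 1 of the P8 SGN libraries or without glial replicate 1, and *Cenpf*, *Rrm2* and *Mcm4* also without glial replicate 2, with adjusted p up to 0.0488. Without P8 SGN replicate 1 or without P8 SGN replicate 2, 11 members were called, and 10 without the 1st replicates of the P1, P8 and P14 SGNs, which hold other cells' markers. Those 3 fits called 3374, 3014 and 3342 of all genes, against 3662 with all libraries. The mitotic genes were lowest in glial replicate 3 by their sum, the glial library with the fewest counts. Exons of *Ccna2*, *Ccnd1*, *Cdk2* and *Cdc20* overlap Exosc9, LTO1, Pmel and Elovl1 on the opposite strand, and no alternative tested the use of strand.

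**Figure D4:**
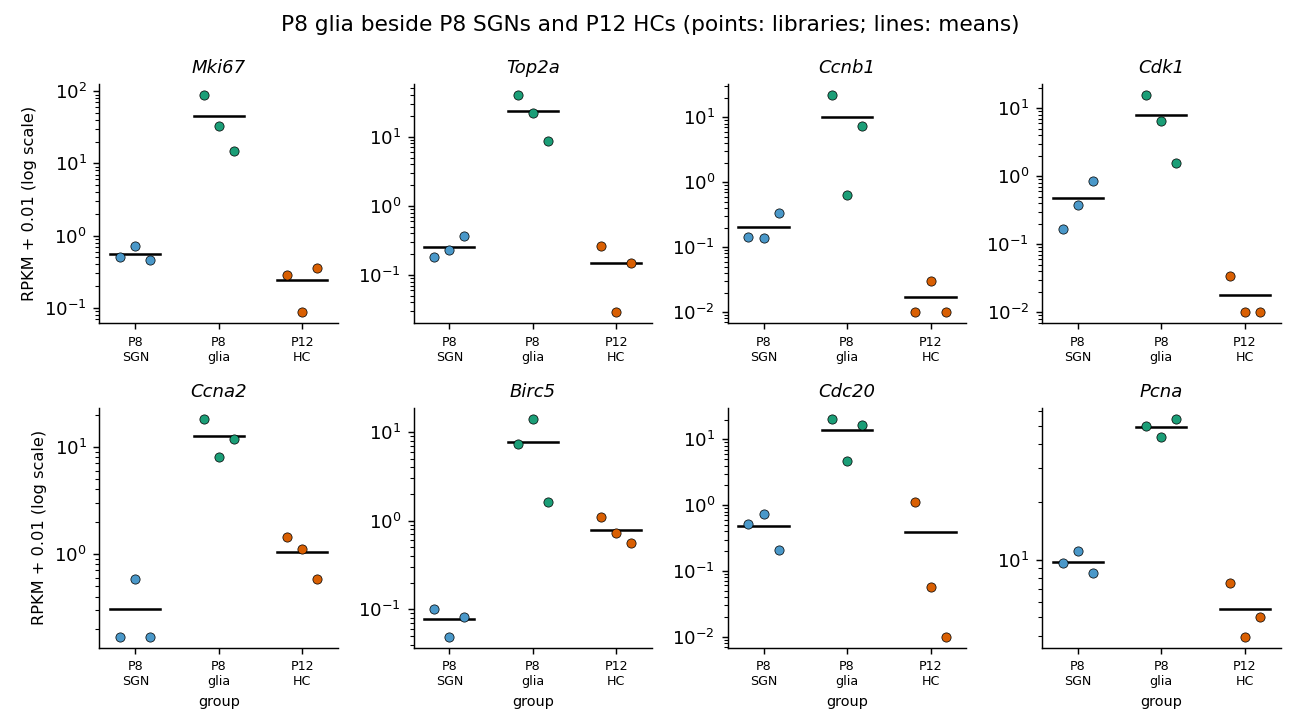
Levels as RPKM + 0.01 (log axes) of 8 members in P8 SGNs, P8 glia and P12 HCs (horizontal axes), with 1 point per library and a line at the mean. All 3 glial points lie above all SGN and HC points in each panel, and Pcna is the tightest in glia at 43.5 to 54.1 RPKM.

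In the wider lists, 17 of 28 tested mitosis genes were called higher in glia than in P8 SGNs and 0 lower, where 7.53% of all genes tested were called higher and 13.4% lower, and 5 of 18 RB, E2F and DREAM genes, 5 of 32 replication genes and 3 of 11 other cyclin and CDK genes were called higher. Some genes of these lists, among them *Melk*, *Nek2* and *E2f8*, passed the filter at no SGN age. They entered this test through glia, HCs or both, and were not set aside in these counts. *Kif11*, the kinesin that separates spindle poles, was at 44.8, 12.9 and 4.45 RPKM in glia against 0.147, 0.207 and 0.278. *Melk*, a mitotic kinase, was at 5.27, 4.71 and 1.70 RPKM against 0, 0 and 0.0273. *E2f8* and *E2f7*, repressive E2Fs that are themselves E2F targets, were at 7.11 ± 2.43 and 5.29 ± 3.11 RPKM (SD, n = 3) against 0.0603 ± 0.0146 and 0.0560 ± 0.0197. *Cdk6*, the other partner of D-type cyclins, was at 20.1, 13.4 and 17.3 RPKM against 0.214, 0.468 and 1.22. In that list only *Cdkn2d*, which encodes the INK4 inhibitor p19, was called lower in glia, at 9.49, 2.78 and 10.7 RPKM against 39.7, 27.8 and 43.6.

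HCs and SGNs of nearby ages shared low levels of most members. Against P14 SGNs, 4 of 40 members tested were called in P12 HCs, 3 higher and 1 lower, where 23.1% of all genes tested were called. The median log2 difference was 0.18 against 0.04 over all genes tested. The 3 higher genes were *Bub1b*, *Cdc6* and *Cdkn1c*, and the lower was *Cdkn1b*.

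*Bub1b*, which encodes the spindle checkpoint kinase BubR1 (chr2:118598211-118641591), was at 8.39, 9.03 and 10.4 RPKM in HCs, from 604, 897 and 1107 counts, and at 0.615, 0.350 and 0.130 in P14 SGNs. All HC libraries were above all 15 SGN libraries, of which the highest had 2.44 RPKM. The log2 difference to P14 SGNs was 4.86 ± 1.04 (adjusted p = 0.000740) and held in all 14 alternatives. In glia *Bub1b* was at 13.1, 11.1 and 1.18 RPKM, and the log2 difference of glia to HCs was -0.52.

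Of the 6 tested mitotic kinase and checkpoint genes, *Bub1b* was the 1 called higher in HCs (16.7%), close to the 12.2% of all genes called higher. *Bub1*, its checkpoint relative, and *Ttk*, the kinase that starts the checkpoint signal, had 0 counts in each HC library. *Cdk1* had 2, 0 and 0 counts and *Ccnb1* 0, 2 and 0. *Mad2l1* was at 0.509, 0.472 and 0.452 RPKM in HCs and *Cdc20*, the target of the checkpoint, at 1.11, 0.0461 and 0. *Plk1* was at 0.513, 2.17 and 1.98 RPKM in HCs and 0.940, 0.0487 and 0.0562 in P14 SGNs, and did not pass. *Aurka*, Aurora kinase A, was at 0.328, 0.459 and 1.18 RPKM in HCs against 0.494, 0.338 and 1.46. It entered the test only through HCs and did not pass. *Cdk1* had a ratio of P14 SGNs to HCs of 82.1 from the summed counts, with an exact 95% interval of 22.3 to 684 that covers counting error only, and in the test it did not pass (adjusted p = 0.0123). The ratio pools the P14 libraries. Replicate 1 of P14, which held other cells' markers, had 6.38 RPKM of the 5 S, G2 and M genes, against 0.550 and 1.81.

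*Cdc6* was at 1.35, 0.642 and 1.62 RPKM in HCs and at 0.0165, 0.0614 and 0.0236 in P14 SGNs (log2 difference 5.03 ± 0.95, adjusted p = 0.000197, kept in all 14 alternatives). Its partner in licensing *Cdt1* was at 0.151, 0 and 0 RPKM in HCs, and the helicase subunits *Mcm2* and *Mcm3* were at 0.205, 0.149 and 0.0232 and at 0.111, 0 and 0. HCs thus had *Cdc6* reads with few reads of *Cdt1*, *Mcm2* and *Mcm3*. This did not extend to the whole list, since *Mcm5*, *Mcm6*, *Gins2* and *Pcna* were over 1 CPM in all 3 HC libraries. The 10 licensing and fork genes summed to 13.0, 11.0 and 17.2 RPKM in HCs and to 14.2, 20.2 and 13.4 in P14 SGNs. *Mcm4* at 0.992, 2.39 and 3.77 RPKM and *Mcm7* at 0.952, 2.06 and 3.64 overlapped the P14 SGNs and did not pass.

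The CDK inhibitors of HCs differed from those of SGNs. *Cdkn1b* was at 8.71, 5.62 and 5.49 RPKM in HCs against 26.2, 44.2 and 26.6 in P14 SGNs, a log2 difference of -2.31 ± 0.33 (adjusted p = 1.09e-05). With library size as the only scaling this was -1.61 and under the 4-fold limit, and that scaling moved the median log2 difference of all genes from 0.04 to 0.75. *Cdkn1c* was at 10.2, 9.12 and 9.16 RPKM in HCs against 1.08, 0.656 and 0.394, a log2 difference of 3.79 ± 1.10 (adjusted p = 0.00797). Leaving out any 1 of the 6 libraries ended the *Cdkn1c* call, with adjusted p up to 0.0354, and the log2 difference stayed between 3.50 and 4.51 over all alternatives. *Cdkn1a* was at 23.7, 21.03 and 21.3 RPKM in HCs, within the range of P14 SGNs.

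**Figure D5:**
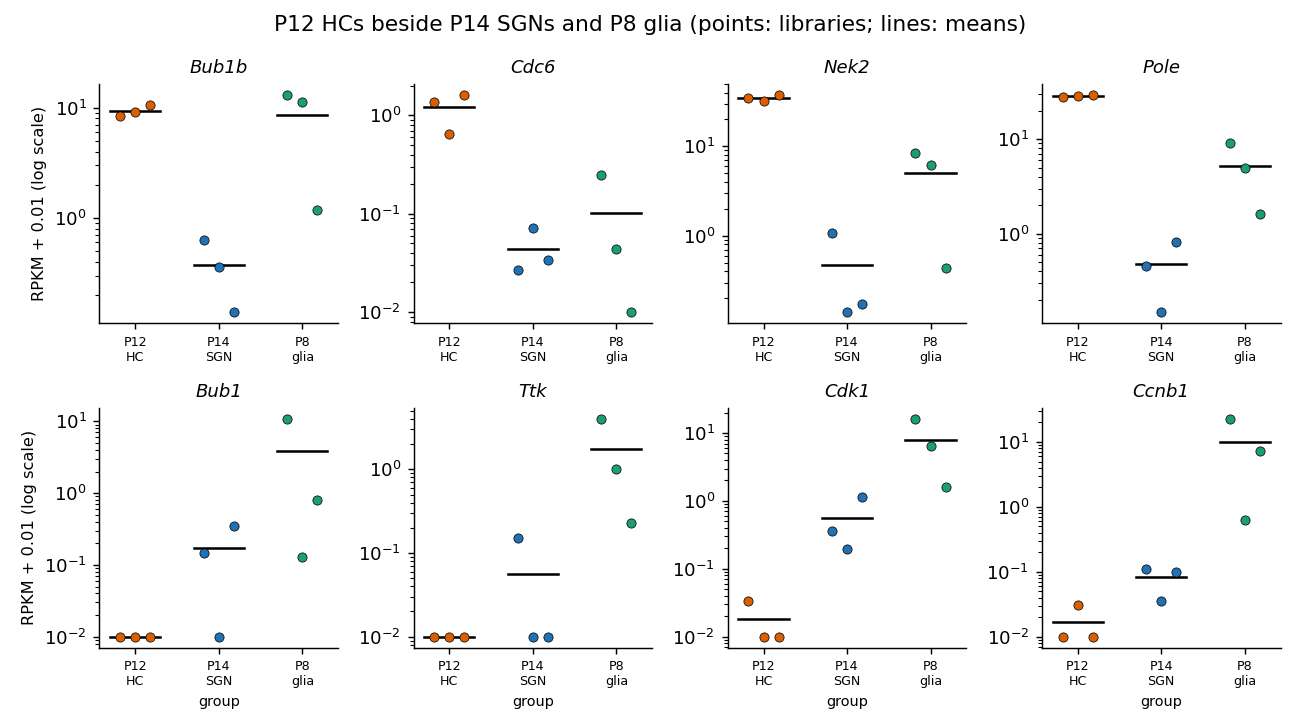
Levels as RPKM + 0.01 (log axes) of 6 members and of Nek2 and Pole in P12 HCs, P14 SGNs and P8 glia (horizontal axes), with 1 point per library and a line at the mean. HCs are the highest group by mean for Bub1b, Cdc6, Nek2 and Pole and lie at or next to 0 for Bub1, Ttk, Cdk1 and Ccnb1, which glia express.

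In the wider lists, 2 of 32 replication genes, 2 of 18 RB, E2F and DREAM genes and 1 of 28 mitosis genes were called higher in HCs than in P14 SGNs, where 12.2% of all genes tested were called higher and 10.9% lower. Called lower were 1 replication gene, 1 mitosis gene and 1 of 11 other cyclin and CDK genes. No list exceeded the share of all genes in either direction. *Nek2*, a centrosomal kinase, was at 34.9, 32.0 and 38.0 RPKM in HCs against 1.08, 0.130 and 0.164 (log2 difference 6.83 ± 1.00, adjusted p = 1.22e-05). *Pole*, the catalytic subunit of DNA polymerase epsilon, was at 28.0, 28.8 and 29.6 RPKM against 0.452, 0.139 and 0.802 (6.29 ± 0.76, adjusted p = 1.36e-06). *Tk1*, thymidine kinase, was at 5.28, 5.89 and 4.98 RPKM against 0.257, 0.154 and 0.202. *Mybl2*, a MYB factor of the cell cycle, was at 1.69, 2.02 and 1.38 RPKM against 0.0930, 0.104 and 0. These 4 genes were each above every P14 SGN library in all 3 HC libraries. Of them, *Nek2* and *Mybl2* passed the filter at no SGN age and entered this test through HCs, glia or both. Exons of *Nek2*, *Pole* and *Tk1* overlap Gm38037, Gm15792 and Afmid on the opposite strand, whereas those of *Bub1b* and *Cdc6* overlap no other exon in the annotation. *Wee1* was lower in HCs, at 1.01, 0.881 and 0.637 RPKM against 11.3, 17.1 and 17.5, as was *Gmnn*, the inhibitor of Cdt1, at 0.851, 0.0882 and 0.110 against 2.53, 1.97 and 2.44.

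The supporting cell markers *Prox1*, *Gjb2*, *Gjb6* and *Otog* summed to 214, 211 and 213 RPKM in HCs, against 48.0 to 57.8 in P14 SGNs. Most of the HC sum was *Otog*, at 151, 154 and 160 RPKM. The higher sum therefore does not show that the markers were higher in HCs as a list. Connective tissue markers summed to 25.8, 23.0 and 24.7 RPKM and glial markers to 9.18, 8.29 and 9.31. The HC libraries hold cells of cochlea and vestibule together. The part of other cells in the HC levels of *Bub1b* and *Cdc6* was not tested.

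Between glia and HCs, 19 of 40 members tested were called, 18 higher in glia and 1 higher in HCs, where 24.4% of all genes tested were called and 8.18% were called higher in glia. *Ccnb1*, *Cdk1*, *Ttk* and *Cdc20* entered the test only through the glia, and without these 14 of 36 were called higher. With no filter on low counts 17 were called higher and 1 lower. Of the 36366 genes then tested, 1385 were called higher in glia and 3516 lower. This comparison shares the glia and the HCs with those above. The median log2 difference was 2.59 against -0.14 over all genes tested, and it was the same with *Ttk* at its bound. Over the 36 members left without those that entered only through the glia, it was 2.20. The gene higher in HCs was *Cdc6*, which had 0.238, 0.0335 and 0 RPKM in glia (log2 difference of glia to HCs -4.55 ± 0.95, adjusted p = 0.000610). *Cdk1* had a ratio of glia to HCs of 1556 from the summed counts (exact 95% interval 430 to 12857, counting error only), and *Ccnb1* a ratio of 1717 (475 to 14189). *Ttk* was at least 234-fold higher in glia than the limit of 3 counts over the HC group, and *Bub1*, which was not tested, at least 496-fold higher. *Cdkn1b* was 7.61-fold higher in glia (adjusted p = 8.36e-07).

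The calls of *Pcna*, *Ccna2*, *Mcm2*, *Cdkn1b*, *Ccnd1*, *Ttk*, *Cdk1*, *Top2a* and *Ccnb1* between glia and HCs held in all 13 alternatives. The call of *Rrm1* was lost without HC replicate 1 or glial replicate 1, where it was under 4-fold, that of *Cdkn1c* without glial replicate 1, that of *Cdk2* without glial replicate 3 or HC replicate 2 or 3, and that of *Cdkn1a* without HC replicate 2 or 3 or glial replicate 1 or 2, with adjusted p up to 0.0542. *Mcm7* and *Rrm2* were lost without any 1 HC library or without glial replicate 1, and *Rrm2* also without glial replicate 2 (adjusted p up to 0.0981). *Cdc6* was lost in edgeR, with library quality weights and with only the 6 libraries compared (adjusted p up to 0.0531). In the wider lists, 14 of 28 mitosis genes were called higher in glia than in HCs and only *Nek2* lower, and 6 of 32 replication genes higher and only *Pole* lower, where 8.18% of all genes tested were higher and 16.2% lower. Genes that entered only through glia or only through HCs were not set aside in these counts.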

How the data were processed

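RNA was amplified with the Ovation RNA-Seq System V2 from picked or sorted cells. Per the labels and the submitters' processing notes, the authors used CASAVA, aligned reads with STAR 2.4.0i to mm10 and counted them per gene with featureCounts. The deposited values are raw counts per gene with a gene length. Whether counting used strand or multiply mapped reads is not given in the sources used here.

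Samples were grouped by their labels. Counts were tested with limma-voom (limma 3.58.1, edgeR 4.0.16 for TMM scaling, R 4.3.3) on group means with no covariate, for genes over 1 CPM in all 3 libraries of at least 1 group. The 15 SGN libraries were fitted together for 5 comparisons of ages (15113 genes), and all 21 for 3 comparisons of cell types (17531 genes). P-values were adjusted by Benjamini-Hochberg over all genes of a fit. Log2 differences are the later age minus the earlier, or the cell type named first in a difference minus the other. RPKM uses the deposited length and TMM-scaled library sizes of the 21 libraries. Ratios and limits from counts of 0 to 3 cover counting error only, since amplified reads are not independent molecules. Counts from 1 to 20 were even in a median of 67.9% of cases, so the deposited counts do not step evenly by single reads. The fits were tested on simulated data before use.

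The members, pathway lists and marker lists were chosen with earlier results of these data known. Some marker genes are not reported here and were left out of the sums of their lists. All members may be named, and of each pathway list at most the 2 called genes with the largest rise and the 2 with the largest fall per comparison. Alternatives were DESeq2 1.42.0, edgeR's quasi-likelihood test, library size as the only scaling, no filter, library quality weights, a replicate block, only the 6 libraries compared, and each library left out. Leaving out the 1st replicates of the P1, P8 and P14 SGNs together was added after the data were seen. Gene positions are those of GRCm38, and promoters are RefSeq's on GRCm38.p6.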

Additional observations from a re-analysis of the deposited data

How the results depend on the processing

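Of the 60 called differences of members, 29 kept their call under every alternative run for them. Over 807 combinations of a called difference and an alternative, 644 kept the call, 163 lost it and 0 changed direction. From E15.5 to P1, where 1 was called, 2 were called with only the 6 libraries compared and 3 without the 1st replicates of the P1, P8 and P14 SGNs, and 1 to 2 with single libraries left out. Calls over all 15113 genes went from 1248 to 453, 1064 and 701 to 1595 in the same order. From P1 to P8, where 4 were called, 2 were called by edgeR and 2 without those 1st replicates, and 2 to 3 with single libraries left out. Over all genes the calls went from 1124 to 649, 502 and 638 to 982 in that order. From P8 to P14, where 0 were called, DESeq2 called 1, and leaving out single libraries gave 0 throughout. All-gene calls there were 81, 198 by DESeq2 and 28 to 59 with single libraries left out. From P14 to P30 all alternatives gave 0, where they called 1 to 110 of all genes, against 9 in the main fit. From E15.5 to P30, where 14 were called, leaving out single libraries gave 11 to 14. All-gene calls went from 5224 to between 4225 and 5168. Between P8 glia and P8 SGNs, where 18 were called, 9 were called with only the 6 libraries compared, 10 without those 1st replicates and 11 to 23 with single libraries left out. Calls over all 17531 genes went from 3662 to 2125, 3342 and 3014 to 3883 in the same order. Between HCs and P14 SGNs, where 4 were called, leaving out any single library gave 3. All-gene calls went from 4046 to between 3288 and 3742. Between glia and HCs, where 19 were called, 12 were called with only the 6 libraries compared and 14 to 27 with single libraries left out. Over all genes the calls went from 4272 to 3216 and to between 3416 and 4204. The causes were not tested. With library size as the only scaling the median log2 difference of all genes was 0.75 between HCs and P14 SGNs, -0.63 between glia and HCs and -0.49 from E15.5 to P30, against 0.04, -0.14 and -0.01 with TMM.

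Replicate numbers are shared by the groups, but in no comparison did all 3 same-numbered pairs deviate together with a correlation over 0.1, so the numbers were not taken to pair the libraries. The 1st replicates of neighboring postnatal SGN ages correlated at 0.37, 0.33 and 0.39, and they were the libraries with the highest connective tissue markers of their ages. With the replicate block, the members called numbered 1, 5, 0, 0 and 15 in the 5 age comparisons in the order above, 21 between glia and P8 SGNs, 5 between HCs and P14 SGNs and 21 between glia and HCs. All-gene calls then numbered 1448, 1273, 146, 23, 5406, 3731, 3975 and 4349 in the same order. Levels under the limit of 3 counts, 0.0805 to 0.289 CPM, are not detectable at this depth.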
